A study of Mus musculus with 29 samples.

Results

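The 32 genes described here make fatty acids and build them into triglyceride. They were chosen by name, as known genes of the pathway and with earlier results of these data known, out of 22187 genes listed in 1 expression table of mouse liver. All 32 were listed, and all 32 passed the filter on low values in the fit over all libraries, Mogat1 through non-tumour libraries only. They fall into 5 roles: 4 regulators, 6 genes of acetyl-CoA supply and fatty acid synthesis, 9 elongases and desaturases, 2 acyl-CoA synthetases that activate fatty acids, and 11 genes of triglyceride assembly and its remodelling.

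Liver makes fat from citrate that leaves the mitochondria. Acly splits the citrate, the acetyl-CoA carboxylases and Fasn turn the acetyl-CoA into palmitate, and elongases and desaturases lengthen the chain and add double bonds. The acids are activated to acyl-CoA and placed on glycerol phosphate in order by Gpat, Agpat, Lpin and Dgat enzymes. Insulin through Srebf1, glucose through Mlxipl and oxysterols through Nr1h3 are known to raise these genes in hepatocytes.

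Livers came from C57BL/6 mice that had all been injected with DEN (diethylnitrosamine, a liver carcinogen) when 2 weeks old, at 25 mg/kg, with 18 weeks of feeding. Messenger RNA was sequenced in 13 tumour and 16 non-tumour libraries, so the non-tumour liver is also carcinogen-exposed tissue. The feeding label was HFD_alcohol, called alcohol here, or HFD, and the genotype label was IL17RA-/- or WT, IL17RA being a subunit of the receptor for IL-17A. Tumours had 4 IL17RA-/- and 3 WT libraries on alcohol and 3 IL17RA-/- and 3 WT libraries on HFD. Non-tumour liver had 5 IL17RA-/- and 5 WT libraries on alcohol and 3 IL17RA-/- and 3 WT libraries on HFD. Liquid ethanol and pair-feeding are named in the text on the series, where the sample labels say HFD_alcohol and HFD. The labels do not say which libraries came from the same animal or litter, so p-values measure only the spread between these libraries.

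Expression is given as CPM, the count of a gene scaled so that each library sums to 1000000. The recovered depth was 3213696 to 9169116 counts in tumour and 4653422 to 9660584 counts in non-tumour libraries, so that 3 counts stood for 0.327 to 0.934 CPM in tumours and 0.311 to 0.645 CPM in non-tumour liver. Il17ra averaged 50.4 ± 6.33 CPM (SD, n = 4) in IL17RA-/- tumours and 33.2 ± 0.753 CPM (n = 3) in WT tumours on alcohol, and 59.4 ± 4.45 CPM in IL17RA-/- tumours and 32.8 ± 13.8 CPM in WT tumours on HFD (n = 3 each). In non-tumour liver it averaged 26.1 ± 8.39 CPM in IL17RA-/- and 27.5 ± 10.2 CPM in WT livers on alcohol (n = 5 each), and 24.5 ± 10.3 CPM in IL17RA-/- and 26.3 ± 1.02 CPM in WT livers on HFD (n = 3 each), differences smaller than the spread. In tumours Il17ra lay higher under the IL17RA-/- label without overlap. Ranges were 42.4 to 55.8 against 32.3 to 33.8 CPM on alcohol, and 54.4 to 62.9 against 22.9 to 48.5 CPM on HFD. Of all genes, 4.23% and 24.7% did not overlap there. The label is thus not borne out by a lower Il17ra value, and the reason was not tested. One value for the whole gene would not show loss of only some exons, so every direction between genotypes rests on the label. The 10 hepatocyte markers summed to 82900 to 192000 CPM in tumours and 62700 to 99400 CPM in non-tumour liver. Alb was the largest part, at 57200 to 147500 CPM in tumours and 27330 to 58780 CPM in non-tumour liver. The list was split in direction. Apoa1 and Ahsg also ran higher in tumours, while Apoa2, Cps1 and Cyp2e1 were lower there without overlap. Cyp2e1 was at 124 to 1593 CPM in tumours and 3210 to 8755 CPM in non-tumour liver. The ranges of Ttr, Serpina1c, Tat and F2 overlapped. The 9 Kupffer cell markers summed to 123 to 485 CPM in tumours and 240 to 1590 CPM in non-tumour liver. The 8 macrophage markers summed to 146 to 1900 CPM in tumours and 42.5 to 241 CPM in non-tumour liver. Median sums were 271 CPM in tumours and 49.4 CPM in non-tumour liver for the 6 cholangiocyte markers, 165 CPM in tumours and 39.9 CPM in non-tumour liver for the 5 proliferation markers, and 1120 CPM in tumours and 643 CPM in non-tumour liver for the 8 stellate and fibroblast markers. Spp1 was counted in both the macrophage and the cholangiocyte list, so these sums are not separate measures. The 6 endothelial markers had medians of 422 CPM in tumours and 434 CPM in non-tumour liver. The 8 adipocyte markers summed to 68.7 to 478 CPM in tumours and 1330 to 5140 CPM in non-tumour liver. Car3, which hepatocytes also express, made up 28.4 to 454 CPM of this in tumours and 1232 to 4930 CPM in non-tumour liver. Cfd was at 0 to 1.508 CPM in tumours and 0 to 111.5 CPM in non-tumour liver. Cidec was at 10.17 to 71.83 CPM in tumours and 2.092 to 147.7 CPM in non-tumour liver. Adrb3 was at 0.8117 to 10.04 CPM in tumours and 0.8405 to 4.852 CPM in non-tumour liver. Lep was at 0 in all 29 libraries and Adipoq, Plin1 and Retn at 0.311 CPM or less in each. The part of these marker differences in the results by tissue was not tested. In bulk tissue, fewer cells of a type and less RNA per cell cannot be told apart.

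Fat-synthesis genes were split in tumours, with some lower and others higher. Averaged over the 4 combinations of diet and genotype, 10 of the 32 genes were higher in tumour than in non-tumour liver, 13 were lower and 9 had no call (limma, Benjamini-Hochberg adjusted p under 0.05). The lower calls include Mogat1, which passed the filter only through non-tumour libraries. Across all 13586 genes tested, 36.6% were called higher and 27% lower. The median log2 fold change was -0.147 over the 32 genes and 0.089 over all genes tested. In total the 32 genes held 0.834% to 1.6% of all counts in tumours, with a median of 1.31%, and 1.48% to 4.47% in non-tumour liver, with a median of 2.34%. Scd1 alone held 23.1% to 60.9% of that sum in tumours and 51.1% to 81.4% in non-tumour liver. In 6 of the 32 genes no tumour library overlapped any non-tumour library, where 835 of the 13586 genes tested, or 6.15%, showed no overlap.

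**Figure D1:**
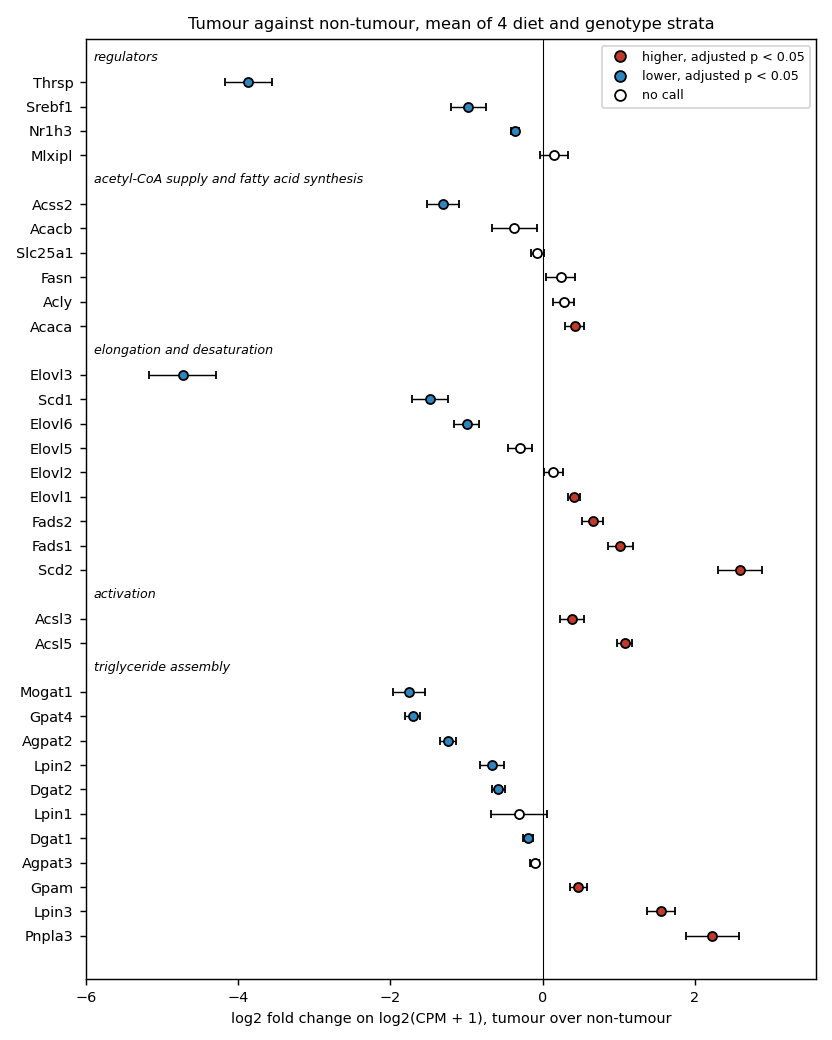
Log2 fold change (tumour over non-tumour, mean of the 4 diet and genotype strata, on the log2(CPM + 1) scale) with its standard error for each of the 32 genes, grouped by role. Filled points passed an adjusted p under 0.05: 10 genes lie to the right of 0 and 13 to the left. The role with the most genes, triglyceride assembly, also has the most lower calls, with 6 of 11, where 27% of all genes tested were lower.

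Among the regulators, 3 of 4 were lower in tumours and 0 higher, where 27% and 36.6% of all genes tested were. Thrsp (Spot 14, a small protein induced by thyroid hormone and carbohydrate that marks lipogenic tissue) ran from 2.87 through a median of 12.1 to 64.3 CPM in the 13 tumour libraries, against 115 through 211 to 495 CPM in the 16 non-tumour libraries. The tissues did not overlap. Its mean was 12.4-fold lower in tumours, and its log2 fold change was -3.87 ± 0.31 (SE, adjusted p = 9.69e-11).

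Srebf1, the transcription factor gene behind insulin-driven fat synthesis and the regulator with the highest CPM, ran from 83.1 through 189.7 to 325 CPM in tumours, against 134 through 332 to 709 CPM in non-tumour liver. Most tumours lay inside the non-tumour range, and 4 of 13 lay below its lowest value. The log2 fold change was -0.98 ± 0.23 (adjusted p = 0.000724). Nr1h3, the oxysterol receptor LXR-alpha, fell by a smaller amount (-0.36 ± 0.05, adjusted p = 1.54e-06), with 11 of 13 tumours below every non-tumour library. Mlxipl, the glucose-responsive factor ChREBP, had no call (0.15 ± 0.19, adjusted p = 0.493).

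The core of palmitate synthesis differed little between the tissues. Fasn, the synthase that assembles palmitate and the most abundant gene of its role in CPM, ran from 362 through 640.3 to 1473 CPM in tumours, against 219 through 567 to 953 CPM in non-tumour liver. These ranges overlap almost fully, and the log2 fold change of 0.24 ± 0.19 had no call (adjusted p = 0.281). Acly (0.28 ± 0.14), the mitochondrial citrate carrier Slc25a1 (-0.07 ± 0.08) and Acacb (-0.37 ± 0.29) had no call either, with adjusted p values of 0.0927, 0.491 and 0.276. Acaca, the carboxylase that supplies malonyl-CoA for synthesis, was higher (0.42 ± 0.12, adjusted p = 0.00365). The exception in the other direction was Acss2, which makes acetyl-CoA from acetate, the product of ethanol breakdown.

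Acss2 ran from 15.95 through 27.4 to 105 CPM in tumours, against 50.9 through 74.0 to 246 CPM in non-tumour liver. Of the 13 tumours, 12 lay below every non-tumour library. The tumour at 105 CPM was WT HFD replicate 4. The log2 fold change was -1.30 ± 0.21 (adjusted p = 6.6e-06).

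Elongases and desaturases gave 4 higher and 3 lower calls of 9, near the 36.6% and 27% of all genes tested. Elovl3, an elongase of saturated and monounsaturated chains, showed the widest difference of the 32 genes on the log2 scale. It ran from 0.302 through 2.90 to 18.7 CPM in tumours, against 35.0 through 98.6 to 583 CPM in non-tumour liver, with no overlap. Its mean was 31.4-fold lower in tumours and its log2 fold change -4.73 ± 0.44 (adjusted p = 1.46e-09). In 2 tumours the value was below that of 3 counts, so the size of the difference there depends on counting error and on the pseudocount.

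Scd1 and Scd2, neighbouring genes on chromosome 19 (Scd1 at chr19:44394455-44407879 and Scd2 at chr19:44293674-44306864, GRCm38), encode desaturases that put the first double bond into stearate and palmitate, and they moved in opposite directions. Scd1, the form typical of adult mouse liver, ran from 1925 through 6742 to 9677 CPM in tumours, against 8698 through 17030 to 36430 CPM in non-tumour liver. Of the 13 tumours, 11 lay below every non-tumour library, and the log2 fold change was -1.48 ± 0.24 (adjusted p = 6.86e-06). Scd2, known from brain and from developing liver in mouse, ran from 162 through 297 to 605 CPM in tumours, against 7.89 through 42.6 to 134 CPM in non-tumour liver. Every tumour lay above every non-tumour library, its mean was 5.74-fold higher and the log2 fold change was 2.60 ± 0.29 (adjusted p = 2.73e-08).

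Per kilobase of exon, Scd1 remained far above Scd2 in both tissues. The mean level was 1346 CPM per kilobase for Scd1 and 56.1 for Scd2 in tumours, against 3653 for Scd1 and 9.76 for Scd2 in non-tumour liver. The log2 ratio of Scd2 to Scd1 was -4.41 ± 0.50 in tumours and -8.53 ± 1.17 in non-tumour liver (mean ± SD, n = 13 and 16). Within strata the difference averaged 4.08, which is 16.9-fold, and a two-sided permutation test that shuffled tissue labels within diet and genotype 100000 times gave p = 2e-05, or 6e-05 adjusted over the 3 ratios tested. The difference was positive in each stratum, from 3.68 in WT on HFD to 4.58 in WT on alcohol. The highest non-tumour Scd2 values, 134 CPM in WT HFD replicate 1 and 129 CPM in IL17RA-/- HFD replicate 3, came from libraries whose sums of oncofetal markers (Afp, Gpc3, Igf2 and Prom1) were 181 and 430 CPM, where the median of non-tumour libraries was 15.3 CPM. The part of these markers in the Scd2 values was not tested. Without those 2 libraries, and also without WT HFD tumour replicate 4 and IL17RA-/- alcohol tumour replicate 5, the difference was 4.44. These are the 4 libraries called doubted below, and the sample labels mark none of them as doubtful. Leaving out the highest non-tumour Scd2 values favours a wider difference, so 4.44 is no separate support for it.

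The desaturases of polyunsaturated fats were both higher in tumours. Fads1 ran from 285 through 501 to 748 CPM in tumours, against 141 through 234 to 558 CPM in non-tumour liver. The ranges overlapped, with 3 tumours above every non-tumour library, and the log2 fold change was 1.02 ± 0.16 (adjusted p = 5.12e-06). Fads2, its neighbour, had a log2 fold change of 0.66 ± 0.14 (adjusted p = 0.000204), with 8 of 13 tumours above every non-tumour library. Elovl6, which lengthens palmitate to stearate, was lower (-0.999 ± 0.16, adjusted p = 7.07e-06). Elovl1, an elongase of very long chains, was higher (0.41 ± 0.08, adjusted p = 8.44e-05). The elongases of polyunsaturated chains, Elovl2 (0.14 ± 0.13, adjusted p = 0.342) and Elovl5 (-0.30 ± 0.15, adjusted p = 0.0974), had no call.

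Both genes of fatty acid activation were higher in tumours, where 36.6% of all genes tested were called higher. Acsl5, the more abundant of the pair, joins fatty acids to coenzyme A at the endoplasmic reticulum and mitochondria of hepatocytes. It ran from 526 through 689.5 to 987 CPM in tumours, against 231 through 341 to 444 CPM in non-tumour liver, with no overlap. The mean was 2.12-fold higher and the log2 fold change 1.08 ± 0.10 (adjusted p = 1.42e-09). Acsl3, found on lipid droplets, was called on a small difference (0.39 ± 0.16, adjusted p = 0.0346), and this call was lost in 12 of 35 alternatives. It was lost with CPM rescaled by median ratios (adjusted p = 0.0567), without 4 doubted libraries (0.0719), and without any one of 10 single libraries: IL17RA-/- alcohol tumour replicate 7, WT alcohol tumour replicate 6, IL17RA-/- HFD tumour replicates 4 and 6, WT HFD tumour replicate 4, and the non-tumour IL17RA-/- alcohol replicate 1, WT alcohol replicate 5, IL17RA-/- HFD replicate 1 and WT HFD replicates 2 and 3 (adjusted p up to 0.09).

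**Figure D2:**
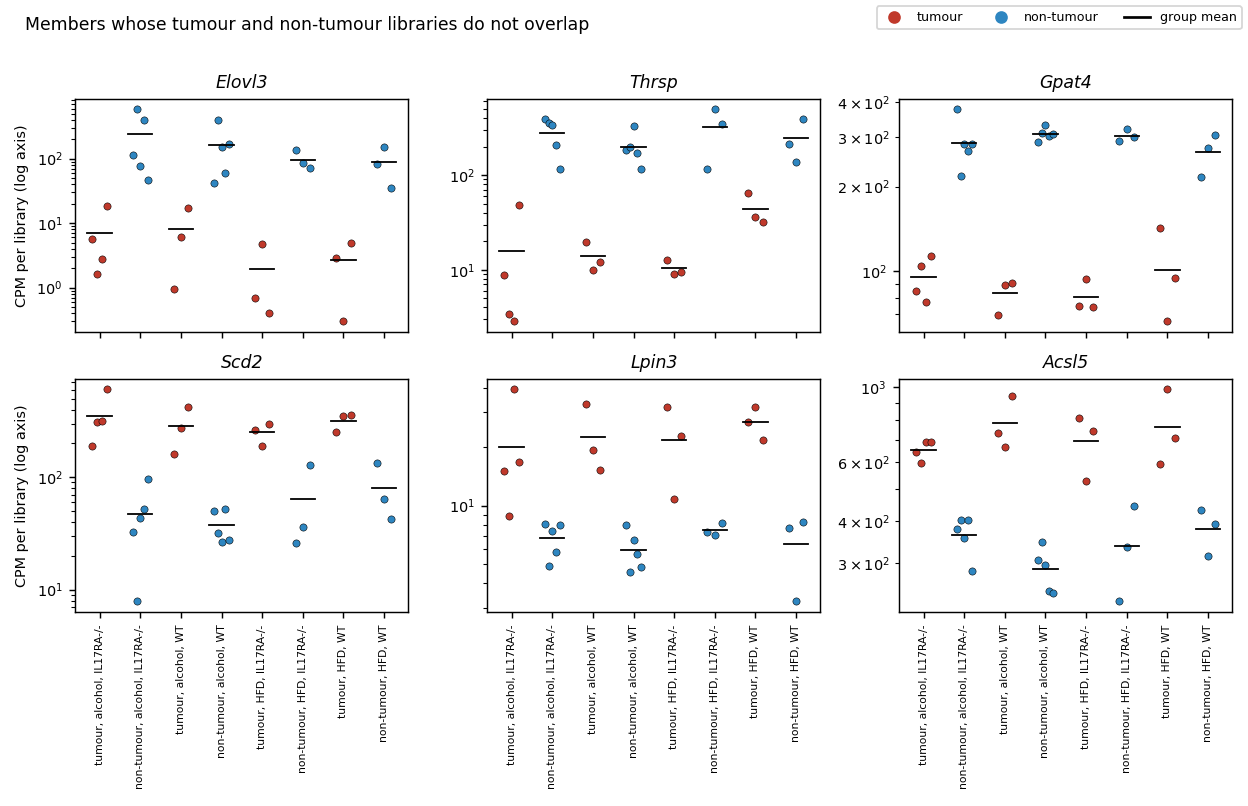
CPM in each library (points, log axis) and group mean (line) for the 6 genes whose tumour and non-tumour libraries did not overlap; each pair of groups shares diet and genotype label, with tumour to the left. Elovl3, Thrsp and Gpat4 lie lower in all 13 tumours, and Scd2, Lpin3 and Acsl5 lie higher in all 13.

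Triglyceride assembly, the role with the most genes, held the largest number of lower calls, with 6 lower and 3 higher of 11. Of all genes tested, 27% were lower and 36.6% higher. The share of lower calls was larger among the regulators. At the first step, 2 enzymes that acylate glycerol phosphate moved apart. Gpat4, the enzyme of the endoplasmic reticulum, ran from 66.1 through 89.2 to 142 CPM in tumours, against 217 through 296 to 378 CPM in non-tumour liver. The tissues did not overlap, the mean was 3.25-fold lower in tumours, and the log2 fold change was -1.71 ± 0.10 (adjusted p = 4.26e-13). Gpam, the mitochondrial enzyme and a known SREBP target, was higher in tumours (0.47 ± 0.11, adjusted p = 0.000547), with 8 of 13 tumours above every non-tumour library. Per kilobase, the mean level of Gpam was 52.3 CPM and that of Gpat4 13.5 CPM in tumours, against 37.4 CPM for Gpam and 43.9 CPM for Gpat4 in non-tumour liver.

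At the second step, Agpat2 makes phosphatidate, and loss of the human gene is known to cause generalized lipodystrophy. It ran from 47.0 through 70.8 to 130 CPM in tumours, against 112 through 176 to 231 CPM in non-tumour liver. Of 13 tumours, 12 lay below every non-tumour library. The log2 fold change was -1.24 ± 0.10 (adjusted p = 1.22e-10), and Agpat3, a related enzyme, had no call (-0.10 ± 0.06, adjusted p = 0.128).

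The lipins remove the phosphate from phosphatidate, and the 3 of them differed. Lpin3, the least abundant per kilobase in both tissues, ran from 8.88 through 21.6 to 39.4 CPM in tumours, against 3.24 through 7.20 to 8.20 CPM in non-tumour liver. The tissues did not overlap, the mean was 3.43-fold higher in tumours and the log2 fold change was 1.56 ± 0.18 (adjusted p = 6.22e-08). Lpin2, the gene with the highest CPM of this role, ran from 234 through 388 to 628 CPM in tumours, against 369 through 708 to 927 CPM in non-tumour liver. It was lower (-0.66 ± 0.16, adjusted p = 0.000705) although 8 of the 13 tumours lay inside the non-tumour range. Lpin1 had no call (-0.31 ± 0.37, adjusted p = 0.468) and the widest spread of the lipins, at 56.5 to 901 CPM in non-tumour liver alone.

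At the last step, Dgat2 and Dgat1 turn diacylglycerol into triglyceride. Both were lower in tumours, Dgat2 by more (-0.58 ± 0.09, adjusted p = 2.76e-06) than Dgat1 (-0.19 ± 0.07, adjusted p = 0.0198). The log2 ratio of Dgat1 to Dgat2 was -3.90 ± 0.26 in tumours and -4.28 ± 0.24 in non-tumour liver (mean ± SD, n = 13 and 16). The difference of 0.39 had p = 0.0007 in the permutation test within strata, 0.00105 adjusted over 3 ratios. The call on Dgat1 alone was lost without non-tumour IL17RA-/- HFD replicate 2, where its adjusted p was 0.0501.

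Of the enzymes outside this chain, Mogat1, which acylates monoacylglycerol, was at 0 to 0.934 CPM in tumours with a median of 0.161, against 0.418 through 3.04 to 8.60 CPM in non-tumour liver. Tumour values stood for a few counts or none, and 9 of 13 lay below every non-tumour library. No tumour reached the 1 CPM of the filter, so Mogat1 passed it only through non-tumour libraries, which favours a lower call. Its call as lower (-1.76 ± 0.21, limma, adjusted p = 9.79e-08) is therefore no separate support for a direction. The size of the difference depends on the pseudocount. Pnpla3, a lipid-droplet protein whose human form is known for its link to fatty liver, ran from 2.94 through 11.5 to 38.6 CPM in tumours, against 0 through 1.12 to 4.94 CPM in non-tumour liver. Of 13 tumours, 9 lay above every non-tumour library, and the log2 fold change was 2.23 ± 0.35 (adjusted p = 4.39e-06).

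The carboxylase pair gave the weakest of the 3 ratios. The log2 ratio of Acacb, whose malonyl-CoA is known to hold back fatty acid entry into mitochondria, to Acaca was -3.06 ± 0.98 in tumours and -2.16 ± 0.66 in non-tumour liver (mean ± SD, n = 13 and 16). The difference within strata was -0.79, and the same permutation test gave p = 0.0212 before and after adjustment over 3 ratios. It ran from -1.91 in IL17RA-/- livers on alcohol to 0.02 in IL17RA-/- livers on HFD. Leaving out any one of IL17RA-/- HFD tumour replicate 5, WT HFD tumour replicate 5 or WT HFD tumour replicate 6 ended the call, with differences of -0.64, -0.70 and -0.66.

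Upstream sequence is shown for 4 genes that differ in behaviour between the tissues: Agpat2, lower in tumours, Acsl5 and Lpin3, higher, and Fasn, without a call. Each is the 250 bases before a transcription start, 5′ to 3′ on the strand of the gene, from RefSeq (GRCm38.p6), and none holds a base of an annotated exon. They are at chr2:26604418-26604667 on the minus strand (Agpat2), chr19:55253119-55253368 on the plus strand (Acsl5), chr2:160880420-160880669 on the plus strand (Lpin3) and chr11:120824548-120824797 on the minus strand (Fasn). Capitals mark matches, on either strand, to 4 motifs: CCAAT (the box bound by NF-Y), GGGCGG (the GC box bound by Sp factors), CACGTG (an E-box of helix-loop-helix factors) and TCACNCCAC (the core of the sterol regulatory element).
Agpat2: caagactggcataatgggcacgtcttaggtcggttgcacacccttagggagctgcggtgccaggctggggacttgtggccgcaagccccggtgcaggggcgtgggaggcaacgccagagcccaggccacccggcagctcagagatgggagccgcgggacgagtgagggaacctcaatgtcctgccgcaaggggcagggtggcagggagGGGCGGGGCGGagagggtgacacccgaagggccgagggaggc
Acsl5: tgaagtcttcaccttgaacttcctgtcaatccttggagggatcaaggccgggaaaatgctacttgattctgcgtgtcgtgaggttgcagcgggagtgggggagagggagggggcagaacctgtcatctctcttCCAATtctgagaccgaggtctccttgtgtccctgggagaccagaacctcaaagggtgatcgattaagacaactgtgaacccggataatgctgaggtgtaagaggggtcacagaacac
Lpin3: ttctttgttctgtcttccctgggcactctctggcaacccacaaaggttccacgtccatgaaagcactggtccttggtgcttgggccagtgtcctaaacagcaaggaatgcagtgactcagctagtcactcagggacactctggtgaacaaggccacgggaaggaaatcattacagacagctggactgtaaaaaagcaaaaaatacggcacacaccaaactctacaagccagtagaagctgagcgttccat
Fasn: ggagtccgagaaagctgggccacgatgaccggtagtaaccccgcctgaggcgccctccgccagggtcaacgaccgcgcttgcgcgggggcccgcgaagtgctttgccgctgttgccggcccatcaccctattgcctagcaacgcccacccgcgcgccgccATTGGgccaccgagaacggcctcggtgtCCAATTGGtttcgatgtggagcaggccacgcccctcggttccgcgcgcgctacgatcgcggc
The Fasn window holds 3 CCAAT boxes, 2 of them overlapping, beginning 90, 62 and 59 bases before the start. The Acsl5 window holds 1 CCAAT box, the Agpat2 window 2 overlapping GC boxes beginning 42 and 37 bases before the start, and this Lpin3 window none of the 4 motifs. RefSeq windows were at hand for 25 of the 32 genes, 35 windows in all. A CCAAT box was in a window of 14 of the 25 genes and a GC box in 14, where 33.8% and 32.7% of all 32851 windows of the same length held them. An E-box was in a window of 4 genes, against 6.02% of all windows, and the sterol element core in that of 1 gene, Mlxipl, against 1.05%. These are matches of letters and not evidence of binding, and genes with several windows had more chances of a match than single windows.

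Within the 4 combinations of diet and genotype, 8 genes were called in each. Thrsp, Elovl3, Gpat4, Agpat2 and Mogat1 were lower in all 4, Scd2, Acsl5 and Lpin3 were higher in all 4, and no gene was called in opposite directions. Of these, Mogat1 passed the filter only through non-tumour libraries. Of the 32 genes, 24 had the same sign in all 4 strata. The shares of all genes called, or with the same sign, in all 4 strata were not worked out. These counts are therefore not shown to be particular to the 32 genes. In IL17RA-/- livers on alcohol, 4 genes were higher and 10 lower in tumour than in non-tumour liver, where 21.8% and 18.1% of all genes were called higher and lower. In WT livers on alcohol, 7 were higher and 13 lower (16.6% and 19.2% of all genes). In IL17RA-/- livers on HFD, 9 were higher and 9 lower (23.9% and 16.5% of all genes). In WT livers on HFD, 3 were higher and 7 lower (7.64% and 7.61% of all genes). This last count, 10 in all, rested on few libraries: it was 4 without WT HFD tumour replicate 5, 6 without WT HFD non-tumour replicate 3 and 6 when only the 6 libraries of these 2 groups entered the fit.

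**Figure D3:**
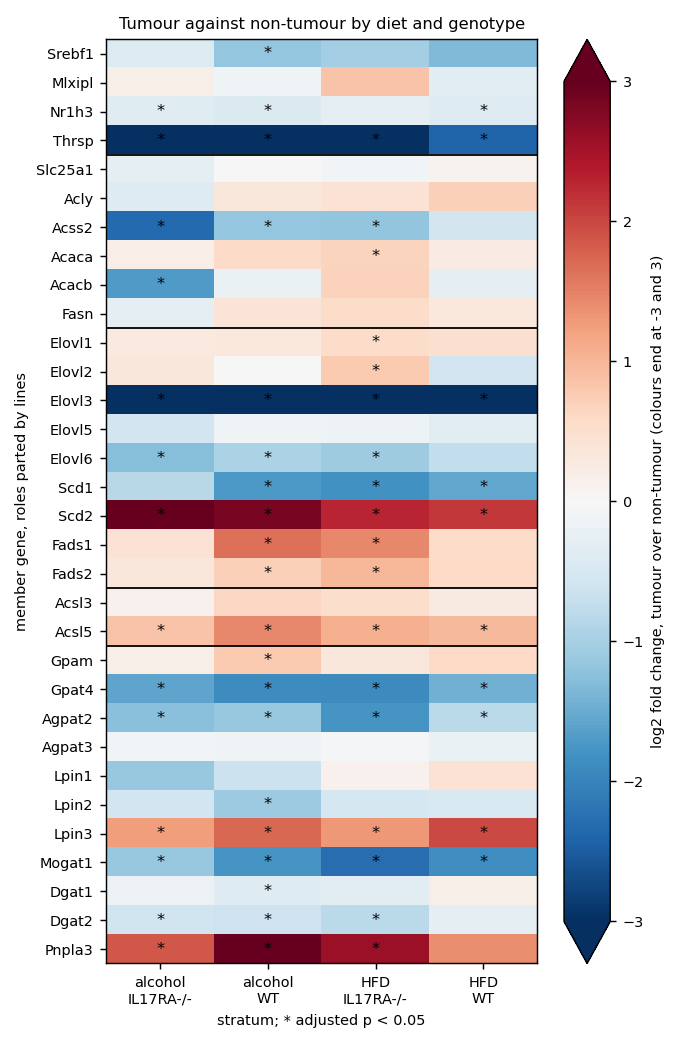
Log2 fold change (tumour over non-tumour) of the 32 genes, in rows by role, in each diet and genotype label, in columns; colours end at -3 and 3 and a star marks an adjusted p under 0.05. Elovl3 and Thrsp are the deepest blue rows and Scd2, Pnpla3 and Lpin3 the strongest red ones, with the calls of Scd2 and Lpin3 in all 4 columns.

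Calls that appeared in some strata and not in others were not shown to differ. Acss2 had a log2 fold change of -2.32 ± 0.37 in IL17RA-/- livers on alcohol (adjusted p = 2.2e-05) and -0.54 ± 0.45 in WT livers on HFD (adjusted p = 0.454). Acacb had -1.70 ± 0.52 in IL17RA-/- livers on alcohol (adjusted p = 0.0111) and 0.69 ± 0.63 in IL17RA-/- livers on HFD (adjusted p = 0.405). Fads1 had 1.65 ± 0.31 in WT livers on alcohol (adjusted p = 0.000152) and 0.43 ± 0.28 in IL17RA-/- livers on alcohol (adjusted p = 0.235). The interaction of tissue and diet was called for 0 of the 32 genes and 0% of all genes, and so was the interaction of tissue and genotype (0%). At an unadjusted p under 0.05, 2 of the 32 genes passed for diet (Acss2, -0.88 ± 0.42, and Acly, -0.60 ± 0.28) and 4 passed for genotype, led by Elovl2 (0.84 ± 0.25, adjusted p = 0.363), with 499 and 1266 of all genes. Limma-voom on the recovered counts also called 0 of all genes in both.

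Genes next to these in the pathway, listed by name, were also split between higher and lower in tumours. Of 19 tested genes of fatty acid and triglyceride synthesis outside the 32, 4 were higher and 10 lower. Of all genes tested, 36.6% were called higher and 27% lower. Acsl1, the main acyl-CoA synthetase of liver, was at 367.5 ± 102 CPM in tumours and 1109 ± 253 CPM in non-tumour liver (SD, n = 13 and 16), a log2 fold change of -1.61 ± 0.13, while Acsl4, which favours arachidonate, was at 322 ± 59.8 CPM in tumours and 120.2 ± 24.0 CPM in non-tumour liver (1.41 ± 0.10). Fitm2, a protein of lipid droplet formation, was lower (-1.29 ± 0.12), and Elovl7, at 21.7 ± 11.8 CPM in tumours and 2.22 ± 1.80 CPM in non-tumour liver, was higher (2.85 ± 0.31). Adjusted p values of these 4 genes were at most 1.77e-08.

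Of 9 genes of SREBP control, 4 were higher and 2 lower in tumours, near the 36.6% and 27% of all genes tested. Srebf2, the factor of cholesterol synthesis, was at 51.0 ± 12.6 CPM in tumours and 20.1 ± 6.60 CPM in non-tumour liver (1.33 ± 0.13, adjusted p = 5.1e-09), opposite in sign to Srebf1. Scap, the escort of both factors, was higher (0.49 ± 0.12, adjusted p = 0.00128). Of 6 genes that supply NADPH, 2 were higher and 3 lower, against the same shares of all genes. Pgd of the pentose phosphate pathway was higher (1.26 ± 0.15, adjusted p = 4.81e-08), while Idh1 (-0.99 ± 0.09, adjusted p = 5.84e-10) and the malic enzyme Me1 (-1.29 ± 0.16, adjusted p = 9.97e-08) were lower.

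Among genes of insulin and glucose input, the insulin receptor gene Insr was higher in tumours (0.82 ± 0.11, adjusted p = 1.01e-06). From the same list, Pklr (-0.52 ± 0.13, adjusted p = 0.00145) and Gckr (-0.31 ± 0.07, adjusted p = 0.000497) were lower. Of 7 genes of triglyceride breakdown, 1 was higher and 5 lower, where 36.6% and 27% of all genes tested were. Mgll, which splits monoacylglycerol, was at 50.1 ± 14.8 CPM in tumours and 208 ± 50.5 CPM in non-tumour liver (-2.06 ± 0.12, adjusted p = 1.1e-12). Ces1d, a triglyceride hydrolase (-2.89 ± 0.18), and G0s2, an inhibitor of the lipase Pnpla2 (-2.12 ± 0.23), were lower too, and the Pnpla2 co-activator Abhd5 was higher (0.67 ± 0.08), with adjusted p values of at most 8.97e-08.

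Between genotype labels, the only call among the 32 genes was in tumours on HFD, where Agpat2 was lower in IL17RA-/- tumours. Agpat2 was at 49.9, 67.1 and 47.0 CPM in IL17RA-/- tumours, against 130, 87.5 and 86.8 CPM in WT tumours. The groups did not overlap. The log2 fold change was -0.87 ± 0.20 (limma, adjusted p = 0.0466), on a background of 213 of 13269 genes, or 1.61%, called in either direction. The call stood at the edge of the threshold: it was lost without WT HFD tumour replicate 4, the highest of the 6 (-0.68 ± 0.19, adjusted p = 0.145), and without any other tumour library except WT alcohol replicate 4 and WT HFD replicate 5. Where a single library ended the call, the adjusted p was 0.0513 to 0.161.

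No other gene of the 32 reached the call in these tumours. Elovl2, which elongates polyunsaturated chains, was at 653, 754 and 751 CPM in IL17RA-/- tumours, against 545, 235 and 252 CPM in WT tumours on HFD. These groups did not overlap either (1.17 ± 0.33, adjusted p = 0.0729), and with CPM rescaled by median ratios the adjusted p was 0.0488. Thrsp was at 12.8, 8.93 and 9.40 CPM in IL17RA-/- tumours, against 64.3, 36.4 and 32.3 CPM in WT tumours, again without overlap (-1.95 ± 0.71, adjusted p = 0.133). Mlxipl was at 111, 190.5 and 196 CPM in IL17RA-/- tumours, against 54.2, 150.1 and 36.3 CPM in WT tumours (1.25 ± 0.43, adjusted p = 0.12), and the groups overlapped. In all, 5 of the 32 genes did not overlap between these groups, the other two being Elovl6 and Gpam, which were lower in IL17RA-/- tumours; of all genes tested, 24.7% did not overlap.

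WT HFD tumour replicate 4 was also the tumour with the highest Agpat2, Thrsp, Acss2 and Gpat4 of all 13, and its sum of oncofetal markers, 195 CPM, was the lowest of the 13. WT HFD tumour replicates 4 and 5 also had the highest cholangiocyte sums of the 13 tumours (1612 and 1675 CPM). They had the highest macrophage sums too (1758 and 1900 CPM), and Spp1 is in both lists. Their hepatocyte sums, led by Alb, were the lowest of the 13. Within that list, replicate 4 had the highest Apoa2 (1976 CPM) and Cyp2e1 (1593 CPM) of the 13 tumours. The part of these markers in the differences between genotypes was not tested. All 6 genes of the NADPH list had a negative log2 fold change, with a median of -0.875, where the median of all genes was -0.092 and 42.1% of them were positive. Of the 6, 1 was called lower: Me1, at 43.2 ± 8.17 CPM in IL17RA-/- tumours and 141 ± 72.1 CPM in WT tumours (SD, n = 3 each; -1.56, adjusted p = 0.0373). Hsd17b12, a step of fatty acid elongation, was called lower as well, at 117 ± 14.8 CPM in IL17RA-/- tumours and 188 ± 19.6 CPM in WT tumours (-0.68, adjusted p = 0.0373). Both are among the 213 calls over all genes, a count that was 5 with the 2 groups alone, 2 without 4 doubted libraries and 0 with a replicate block.

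**Figure D4:**
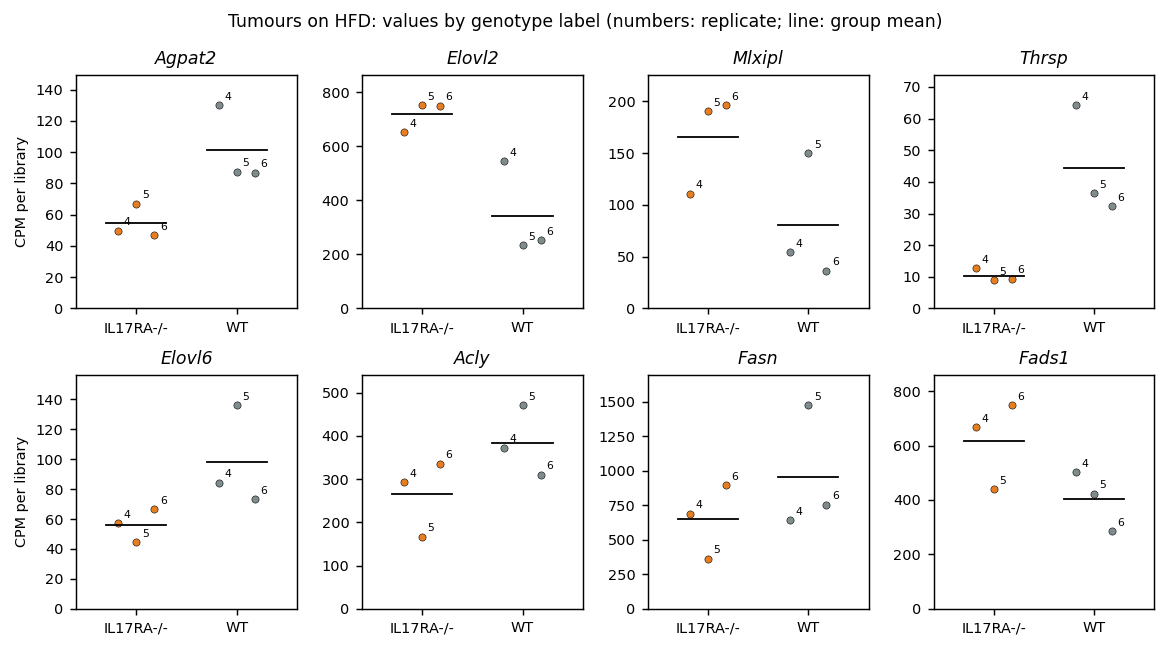
CPM in each HFD tumour (points, numbered by replicate) and group mean (line) for 8 genes, with tumours labelled IL17RA-/- on the left and WT on the right. Agpat2, Thrsp and Elovl6 lie lower and Elovl2 higher in the 3 IL17RA-/- tumours without overlap, and only Agpat2 passed the adjusted threshold.

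In tumours on alcohol, 0 of the 31 genes tested and 0% of all genes were called between genotypes, with 261 of 13269 genes at an unadjusted p under 0.05, while limma-voom made 0 calls; none of the 31 was at an unadjusted p under 0.05. The 3 with the smallest p were Lpin2, Scd1 and Elovl2. Lpin2 was at 319, 537, 352 and 628 CPM in IL17RA-/- tumours, against 409.8, 320.5 and 234 CPM in WT tumours (0.49 ± 0.24, adjusted p = 1). Scd1 was at 9677, 7549, 6636 and 8505 CPM in IL17RA-/- tumours, against 1925, 6589 and 8967 CPM in WT tumours (0.73 ± 0.42), where WT replicate 4 had the lowest value of the 13 tumours. Elovl2 was at 801, 843, 433 and 727 CPM in IL17RA-/- tumours, against 500.0, 339.8 and 629 CPM in WT tumours (0.52 ± 0.31). All 3 pairs of groups overlapped. Averaged over both diets, 0 of the 31 genes and 4 of all genes, or 0.0301%, were called in tumours, with Agpat2 (-0.52 ± 0.14, adjusted p = 0.186), Elovl2 (0.84 ± 0.22, adjusted p = 0.189) and Thrsp (-1.27 ± 0.49, adjusted p = 0.29) first by p.

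In non-tumour liver on alcohol, genes of acetyl-CoA supply and fatty acid synthesis had higher means in IL17RA-/- livers, and none was called. For all 6 the log2 fold change was above 0, and its median was 0.584, where that of all genes was 0.014. Fads1 was at 277, 558, 211, 434 and 284 CPM in IL17RA-/- livers, against 195, 143, 209.0, 148 and 149.5 CPM in WT livers. The groups did not overlap, and of all genes tested 0.421% did not. Its log2 fold change was 0.99 ± 0.27 with an unadjusted p of 0.00203 and an adjusted p of 1.

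Acss2 was at 96.2, 246, 71.7, 219 and 87.4 CPM in IL17RA-/- livers, against 58.7, 96.7, 74.5, 50.9 and 55.0 CPM in WT livers (0.95 ± 0.30, adjusted p = 1). Acacb was at 52.1, 148, 58.6, 118 and 81.3 CPM in IL17RA-/- livers, against 66.7, 59.4, 45.6, 37.7 and 23.5 CPM in WT livers (0.94 ± 0.33, adjusted p = 1). Both pairs of groups overlapped outside replicates 2 and 4 of the IL17RA-/- livers, which were the highest in both genes.

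Those 2 livers shared a profile across the pathway. They had the highest Acly of the 16 non-tumour libraries (471 and 359 CPM), the highest Acss2 and Fads1 and the highest Elovl3 (583 and 402 CPM), together with Srebf1 at 134 and 205 CPM and Scd1 at 9345 and 11140 CPM, near the low end of the 16. Their Kupffer cell marker sums, 269 and 240 CPM, were the lowest of the 16, where the other 3 IL17RA-/- livers had 882 to 1403 CPM. The sample labels do not set these 2 apart. Both were the highest IL17RA-/- livers in Fads1, Acss2 and Acacb, so leaving them out had to lower these differences. Their part in the result was thus not tested. Without both, the log2 fold change was 0.61 for Fads1, 0.37 for Acss2 and 0.51 for Acacb, each with a limma adjusted p of 0.916. Over the whole comparison, limma called 0 of 32 genes and 0% of 12829, and limma-voom called 0. At an unadjusted p under 0.05 there were 6 of the 32 and 330 of all genes.

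**Figure D5:**
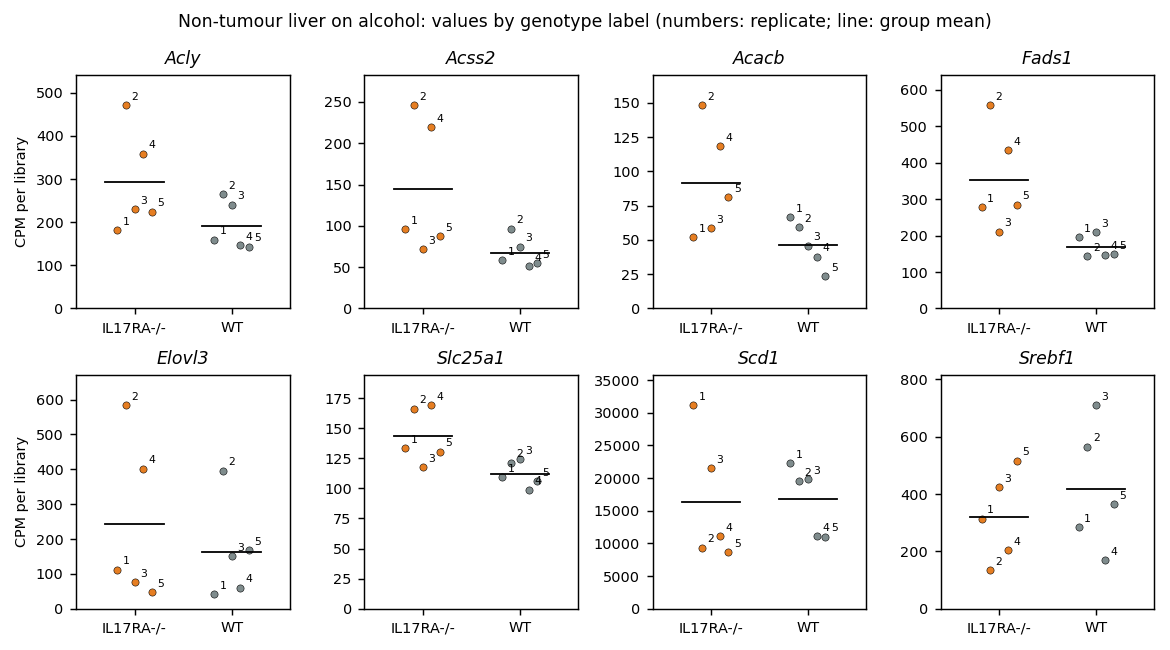
CPM in each non-tumour liver on alcohol (points, numbered by replicate) and group mean (line) for 8 genes, with livers labelled IL17RA-/- on the left and WT on the right. Replicates 2 and 4 of the IL17RA-/- group lie highest for Acly, Acss2, Acacb, Fads1, Elovl3 and Slc25a1 and low for Scd1 and Srebf1.

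In non-tumour liver on HFD, 0 of 32 genes and 0% of all genes were called between genotypes (461 at an unadjusted p under 0.05, 0 of them among the 32, and 0 calls by limma-voom). Acacb was at 25.0, 26.0 and 48.4 CPM in IL17RA-/- livers, against 63.9, 38.5 and 89.6 CPM in WT livers (-0.91 ± 0.43, adjusted p = 0.9). Fasn was at 373, 339 and 556 CPM in IL17RA-/- livers, against 953, 452.5 and 842 CPM in WT livers (-0.79 ± 0.42, adjusted p = 0.9). Acaca was at 188, 215 and 264 CPM in IL17RA-/- livers, against 340, 222 and 411 CPM in WT livers (-0.51 ± 0.29, adjusted p = 0.9). Each pair of groups overlapped by 1 library on each side. The median log2 fold change of all genes was -0.117 here and became 0.001 with CPM rescaled by median ratios, so part of each of these values is shared by all genes. Averaged over both diets, 0 of the 32 genes and 0% of all genes were called in non-tumour liver, with 308 of all genes at an unadjusted p under 0.05.

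The interaction of genotype and diet in non-tumour liver is given for the 3 genes of smallest p. It was 1.85 ± 0.55 for Acacb (unadjusted p = 0.00382), 1.26 ± 0.44 for Fads1 and 1.38 ± 0.53 for Fasn, each with an adjusted p of 0.965, and it was called for 0 of 32 genes and 0% of all genes (5 of the 32 and 529 of all genes at an unadjusted p under 0.05, while limma-voom made 0 calls). In tumours it was called for 0 of 31 genes and 0% of all genes as well, with Agpat2 first by p (0.70 ± 0.27, adjusted p = 0.319), 1757 of all genes at an unadjusted p under 0.05, while limma-voom made 0 calls. With rescaling the median of all genes moved from 0.135 to -0.003 in non-tumour liver and from 0.173 to 0.018 in tumours, so part of each interaction is shared by all genes.

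Alcohol against HFD gave no call among these genes in either tissue. In WT tumours, 1 of 13269 genes was called, or 0.00754%, and it was none of the 31 tested; 5 of these and 2126 of all genes were at an unadjusted p under 0.05. Acly was at 265, 205 and 239 CPM in alcohol tumours, against 372.5, 471 and 310.5 CPM in HFD tumours, without overlap (-0.69 ± 0.26, adjusted p = 0.243). Elovl6 was at 63.9, 62.8 and 45.6 CPM in alcohol tumours, against 84.2, 136 and 73.4 CPM in HFD tumours, also without overlap (-0.72 ± 0.28, adjusted p = 0.245). Elovl5 was at 416, 360.2 and 517 CPM in alcohol tumours, against 682, 584 and 499 CPM in HFD tumours, with overlap (-0.45 ± 0.18, adjusted p = 0.263). In all, 4 of the genes did not overlap here, where 15.2% of all genes did not, and the median of all genes was -0.165, or -0.013 after rescaling.

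In IL17RA-/- tumours, 0 of 31 genes and 0% of all genes were called between diets (0 and 293 at an unadjusted p under 0.05, while limma-voom made 0 calls). The first by p were Lpin1, Agpat2 and Fads2, at unadjusted p values of 0.0979, 0.0993 and 0.103. Lpin1 was at 107, 199.5, 191 and 166.5 CPM on alcohol, against 421, 171 and 364 CPM on HFD (-0.88 ± 0.49). Agpat2 was at 69.9, 70.8, 60.3 and 72.2 CPM on alcohol, against 49.9, 67.1 and 47.0 CPM on HFD (0.33 ± 0.19), and Fads2 was at 431, 441, 236 and 414.5 CPM on alcohol, against 569, 365 and 742 CPM on HFD (-0.54 ± 0.31). Each of these pairs of groups overlapped. Nr1h3 and Elovl1 did not overlap and were lower on alcohol, where 6.41% of all genes did not overlap. Averaged over genotypes, 0 of 31 genes and 0% of all genes were called in tumours (2 and 754 at an unadjusted p under 0.05), with Acly first (-0.48 ± 0.18, adjusted p = 0.858).

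In IL17RA-/- non-tumour liver, Acacb was at 52.1, 148, 58.6, 118 and 81.3 CPM on alcohol, against 25.0, 26.0 and 48.4 CPM on HFD. The groups did not overlap (1.40 ± 0.39, unadjusted p = 0.00239, adjusted p = 0.798), and neither did those of Elovl2, at 486, 709, 471.5, 499 and 536.5 CPM on alcohol, against 430.4, 388 and 441 CPM on HFD (0.35 ± 0.16). Acss2 was higher in mean on alcohol, at 144 ± 81.9 CPM (SD, n = 5), against 68.7 ± 9.31 CPM on HFD (n = 3), with overlap (0.88 ± 0.35). Limma called 0 of 32 genes and 0% of 12829 (3 of the 32 and 745 of all genes at an unadjusted p under 0.05), with 0 calls by limma-voom; of all genes, 3.92% did not overlap.

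In WT non-tumour liver 8 of the 32 log2 fold changes between diets were positive, where 33.6% of all genes were. In IL17RA-/- liver 20 of the 32 were positive, where 60.4% of all genes were. The share over all genes thus differed between genotypes in the same direction as that of the 32, and this difference was not tested as a whole. Pnpla3 was at 0.271, 2.14, 0, 1.13 and 0.918 CPM on alcohol, against 3.36, 4.94 and 1.01 CPM on HFD (-1.10 ± 0.48, adjusted p = 0.876), values that stand for few counts. Fads1 was at 195, 143, 209.0, 148 and 149.5 CPM on alcohol, against 257, 186 and 391.8 CPM on HFD (-0.67 ± 0.31), and Acsl5 was at 307, 346.5, 296, 247 and 245 CPM on alcohol, against 433, 314.5 and 394 CPM on HFD (-0.40 ± 0.19). All 3 pairs of groups overlapped. Limma called 0 of 32 genes and 0% of all genes (3 and 541 at an unadjusted p under 0.05), with 0 calls by limma-voom. Averaged over genotypes, 0 of 32 genes and 0% of all genes were called in non-tumour liver (1 and 735 at an unadjusted p under 0.05), with Mlxipl first (0.45 ± 0.20, adjusted p = 0.811). These comparisons share their groups with the genotype comparisons above, so a high or low group enters both.

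Some members share sequence with other genes, which can split or merge their counts. Of the 50-base stretches of Acaca, 30.4% also occur in another gene, nearly all of them in the predicted gene Gm5182, which is not used here. For Scd1 the share was 4.56% and for Scd2 3.97%, mostly with each other and with Scd3 and Scd4, which were at most 0.921 and 0.613 CPM in any library. Acsl3 shares 3.59% with the overlapping gene Utp14b, at 8.34 to 43.4 CPM, Elovl6 shares 3.98% and Pnpla3 5.14%. Exons of a gene on the other strand cover 12.8% of the exon bases of Mogat1 (BC035947), 8.31% of those of Acsl5 (Zdhhc6) and 3% of those of Agpat2 (Egfl7); the libraries were made with a stranded kit, and whether the counting used strand is not given in the sources used here.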

How the data were processed

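Messenger RNA of 29 mouse liver libraries was sequenced. The authors deposited 1 table of CPM values, 22187 Ensembl genes by 29 libraries, each summing to 1000000; the submitters' processing notes name STAR 2.5.1a, RSEM 1.3.0 and GRCm38. Symbols came from GENCODE M21 (21653 genes matched, 534 did not). Groups came from the sample labels. Genes with at least 1 CPM in at least 3 libraries of a fit were tested on log2(CPM + 1) with limma 3.58.1 (limma-trend, R 4.3.3, two-sided, Benjamini-Hochberg adjusted p under 0.05 over all genes tested): comparisons by tissue over all 29 libraries (13586 genes), those within a tissue over its 13 (13269) or 16 (12829) libraries. Fold changes on this scale understate changes of low genes. The members and lists were chosen with earlier results of these data known. Genes given in full are the 12 with the largest change among those called by tissue, the gene of highest CPM in each role, called genes, and the 3 of smallest p in each comparison without a call. Whole counts were recovered for 83.4% to 86.2% of values (tolerance 0.002) and fitted with limma-voom as an alternative. Other alternatives were the pseudocount, no filter, median-ratio rescaling, 2-group fits, libraries left out and a replicate block. Same-numbered libraries deviated together in every pair only between alcohol and HFD in WT non-tumour liver (correlations 0.35, 0.27 and 0.14), where the blocked fit called 0 of the 32 genes. The fits were tested on simulated data. Counting intervals cover counting error only. One gene of the pathway lists, and the counts of its list, are not reported here.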

Additional observations from a re-analysis of the deposited data

Results flagged for a closer look

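In 4 of 96 groups of 4 or 5 libraries, over the 32 genes, 1 library lay far from the others by Dixon's criterion, and chance alone gives about 1 in 20. Thrsp was at 48.54 CPM in IL17RA-/- alcohol tumour replicate 7, where the other 3 of the group had 2.87 to 8.88 CPM. Fads2 was at 235.9 CPM in IL17RA-/- alcohol tumour replicate 6, where the other 3 had 414.5 to 441 CPM. Elovl2 was at 709.1 CPM in IL17RA-/- alcohol non-tumour replicate 2, where the other 4 had 471.5 to 536.5 CPM. Pnpla3 was at 4.314 CPM in IL17RA-/- alcohol non-tumour replicate 5, where the other 4 had 0.742 to 1.26 CPM.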

How the results depend on the processing

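Of 4187 alternative values for 133 pairs of a gene and a comparison, 0 changed sign where called, 120 lost the call and 3 gained one; the causes were not tested. Of the 23 calls averaged over strata, 21 held in each of the 35 alternatives run, the exceptions being Acsl3 and Dgat1; a replicate block and 2-group fits were not run for them. Leaving out single libraries gave 22 to 24 calls. For IL17RA-/- against WT tumours on HFD the count of 1 gene became 0 without a filter, with the 2 groups alone, without 4 doubted libraries and with the replicate block, 2 with rescaling, and 0 to 2 on leaving out single libraries. The 213 calls over all genes there became 146 without a filter, 614 with rescaling, 5 with the 2 groups alone, 2 without the doubted libraries, 0 with the block and 0 to 1174 without single libraries. Tissue in WT livers on HFD gave 6 genes with the 2 groups alone and 4 to 11 without single libraries, against 10. With the replicate block, tissue gave 9 genes against 14 in IL17RA-/- and 13 against 20 in WT livers on alcohol, and genotype over both diets in tumours gave 1 (Thrsp) against 0, where single libraries gave 0 to 1. Over all genes, the block gave 1444 calls against 5426 and 1676 against 4856 in those tissue comparisons, and WT livers on HFD gave 413 with the 2 groups alone and 1016 without tumour replicate 5, against 2072. On alcohol only replicate numbers 4 and 5 occur in both tissues, and the blocked tissue fits left out the HFD libraries. Fewer usable libraries and the blocking itself cannot be told apart in those lower counts. The block changed no other count of the 32 genes past 1.5 times. The Acacb to Acaca difference ran from -1.027 to -0.641 without single libraries. Elovl3, Mogat1 and Pnpla3 are limited by depth, with values near 3 counts in some libraries.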
